A study of Neurospora crassa with 12 samples.

Results

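Carbon enters central metabolism of the filamentous fungus Neurospora crassa by routes that share intermediates, and 8 genes at the junctions of these routes were followed here across the 4 groups of an RNA-seq series. They were picked by gene identifier and function, with earlier results of these data known, and are 8 of the 9730 genes in the count tables. The genes are acu-3 (NCU04230), acu-9 (NCU10007), acu-6 (NCU09873), acu-5 (NCU06836), cit-1 (NCU01692), gpd-1 (NCU01528, also known as ccg-7), cfp (NCU02193) and aod-1 (NCU07953). All 8 had enough reads to be tested in every comparison, and none overlapped another annotated gene of the NC12 assembly, which gives the positions below.

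The glyoxylate cycle lets a fungus build sugars from acetate or fatty acids by skipping the steps of the citrate cycle that release carbon dioxide. Its 2 dedicated enzymes, isocitrate lyase and malate synthase, are induced on acetate and are low on sugars, and gluconeogenesis then carries the product back to hexoses. Fermentation and the alternative oxidase instead deal with pyruvate and with electrons when respiration through the cytochrome chain is limited or bypassed.

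Each of the 4 groups held 3 biological replicates (I, II and III), 1 library each, labelled Δpac-3 in low-Pi, Δmus-52 in low-Pi, Δpac-3 in high-Pi and Δmus-52 in high-Pi. The Δpac-3 strain lacks the open reading frame of pac-3, the gene of the pH-responsive zinc finger factor PAC-3, which a bar resistance cassette had replaced in a mus-52 knockout background, and Δmus-52 served as its control. Conidia came from cultures aged 10 days for Δpac-3 (7 of them in light at room temperature) and 5 days for Δmus-52 (2 of them in light), and were shaken for 5 h at 30 °C in medium at pH 5.4 with 10 µM (low-Pi) or 10 mM (high-Pi) phosphate, where 44 mM sucrose was the carbon source and 50 mM citrate set the pH. The age and the light exposure of the conidial culture therefore changed together with the strain, and the effects of age, light and deletion cannot be told apart in any comparison of the strains.

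The check of the labels came first. Levels are in CPM, the count scaled to library size with TMM factors over the 12 libraries. The low-Pi level of pac-3 (NCU00090) was 149 ± 12.8 CPM with the label Δpac-3, against 515 ± 7.59 CPM with the label Δmus-52 (mean ± SD, n = 3 each). Its high-Pi level was 156 ± 26.4 CPM with Δpac-3, against 397 ± 48.4 CPM with Δmus-52. pac-3 thus kept 3000 to 12710 counts in the libraries whose strain is described as lacking its open reading frame, against 9186 to 23241 counts in those labelled Δmus-52. mus-52 (NCU00077) had 0 to 36 counts in the 6 libraries labelled Δpac-3, against 487 to 1344 counts in the 6 labelled Δmus-52. The mus-52 counts contradict the name of the control and the pac-3 counts are lower but not absent, so that the groups are called by their labels here, and every direction between strains is one between libraries so labelled, in which mus-52 status and strain cannot be told apart. Depth ranged from 20240314 to 82211503 counts per library. Replicates correlated at 0.967 to 0.98 (Pearson's r of log2 CPM) among the high-Pi libraries labelled Δpac-3 and at 0.989 to 0.993 in the other 3 groups, so that the Δpac-3 high-Pi libraries stood further apart from each other. The summed level of 7 conidial marker genes, none of them at 0, was 175 to 536 CPM with the label Δpac-3, against 196 to 241 CPM with the label Δmus-52, in low-Pi. It was 171 to 323 CPM with Δpac-3, against 78.3 to 85.2 CPM with Δmus-52, in high-Pi. Single markers differed in both directions in low-Pi, where eas (5.61), con-8 (2.72), con-10 (1.54) and fl (1.32) were higher and ccg-1 (-2.35) and con-13 (-2.06) lower on the log2 scale, so that the overlap of their sums there does not show like levels. In high-Pi, where the sums did not overlap, eas (4.01), con-8 (2.78) and fl (1.94) were higher. There con-10 (1.58), ccg-1 (0.76), con-13 (0.30) and con-6 (-0.75) did not differ by the test. The part of these markers in the results was not tested. For 4 markers of the sexual stage, none of them at 0, the sum was 3976 to 5840 and 516 to 8057 CPM in the Δpac-3 libraries, against 861 to 2694 and 556 to 2559 CPM in the Δmus-52 libraries, at low and at high Pi. Nearly all of that sum was mfa-1, which was higher by the test at low Pi (1.56, adjusted p = 0.00333) but did not pass at high Pi (1.57, adjusted p = 0.204). By contrast, poi-2 was lower by the test (-3.76 at low Pi, -3.05 at high Pi), and ccg-4 and app were too low to be tested.

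Between the strains, the largest differences among the 8 genes were falls of acu-3 and aod-1, both over 1.5 on the log2 scale at either Pi level, with acu-9 lower to a smaller extent. In low-Pi, acu-3 averaged 15.03% of its level in the control libraries, aod-1 14.6% and acu-9 37.6%. In high-Pi, acu-3 averaged 26.9%, aod-1 18.1% and acu-9 51.5%. In bulk RNA, fewer cells of a kind and less RNA per cell cannot be told apart. A gene passed the test at a Benjamini-Hochberg adjusted p below 0.05 over all genes in the edgeR quasi-likelihood test, fitted to the 6 libraries compared, and was called modulated if its log2 fold change was also at least 1.5 in size.

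**Figure D1:**
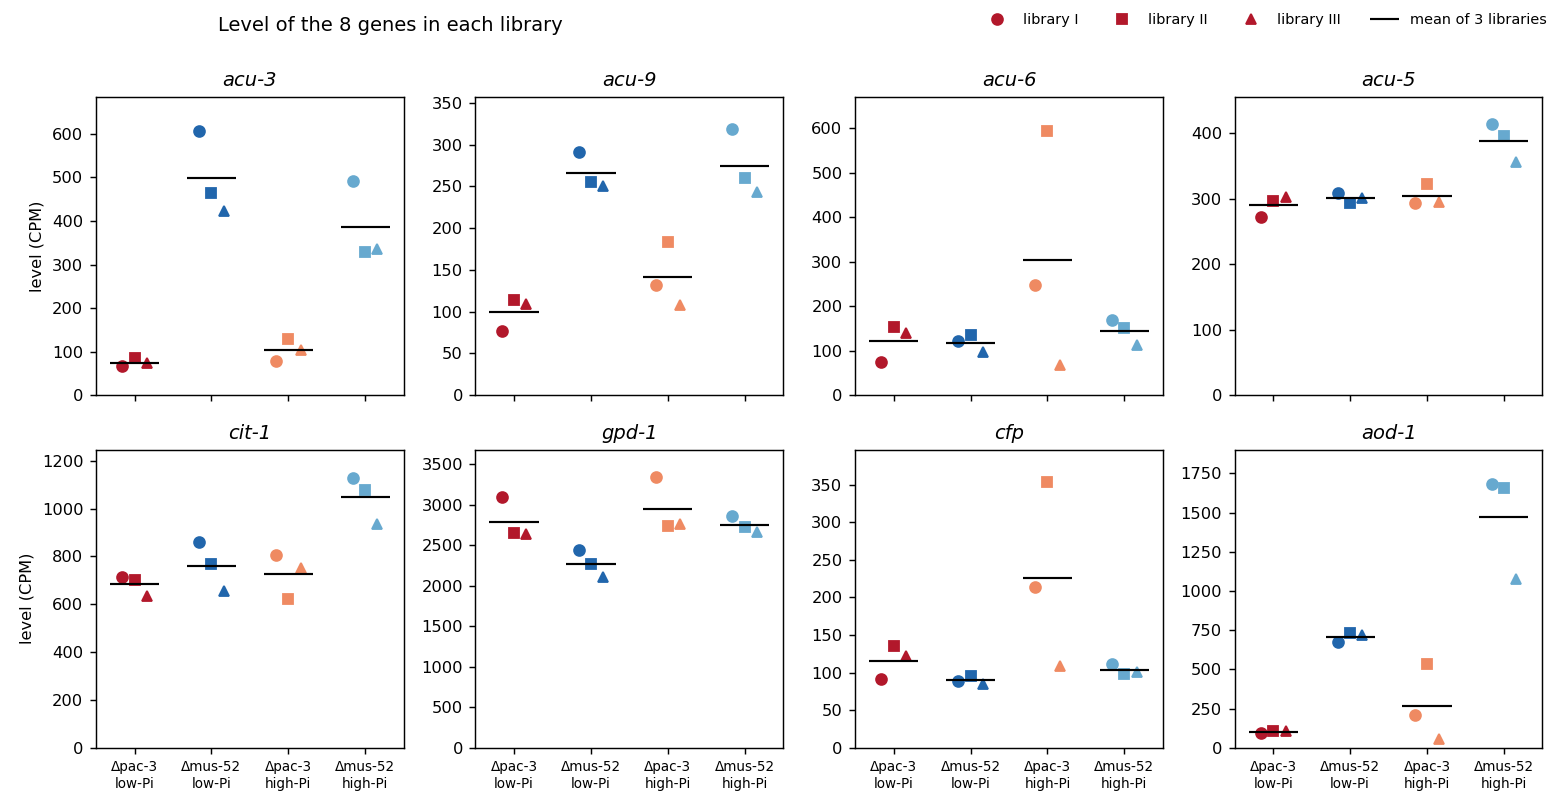
Level in CPM (y axis, linear from 0) of each of the 8 genes in the 12 libraries, by labelled group (x axis), with 1 symbol per library and a black line at the mean of 3. acu-3, acu-9 and aod-1 sat lower in each Δpac-3 library than in any Δmus-52 library at the same Pi, while acu-6, cfp and aod-1 spread widely among the 3 Δpac-3 high-Pi libraries.

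In low-Pi, 3 of the 8 genes passed the test as lower (acu-3, acu-9 and aod-1) beside 25.9% of the 8269 genes tested, and 2 passed as higher (gpd-1 and cfp) beside 25.3%. Of the 8, 2 were modulated and lower beside 4.32% of all genes, and 0 were modulated and higher beside 5.28%. In high-Pi, 5 passed as lower (acu-3, acu-9, acu-5, cit-1 and aod-1) beside 16.6% of 8284 genes, and 1 passed as higher (cfp) beside 18.8%. The same 2 genes as in low-Pi were modulated and lower, beside 1.9% of all genes, and 0 were modulated and higher, beside 7.24%. The groups did not overlap for 4 of the 8 in low-Pi and 5 in high-Pi, beside 59.7% and 51.5% of all genes, so that absence of overlap alone was common in these comparisons. Scaled by total counts without TMM factors, the median of all genes moved to a log2 fold change of 0.19 at low Pi and 0.25 at high Pi, and the genes that passed split into 3086 higher and 1409 lower in low-Pi (2093 and 2138 with TMM) and 2569 higher and 689 lower in high-Pi (1560 and 1375 with TMM). Leaving out 1 library also changed calls over all genes. Without Δmus-52 high-Pi I or II, 1610 and 1582 genes passed in high-Pi, against 2935 with all 6 libraries. Calls lost in such fits are therefore not particular to the gene named.

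**Figure D2:**
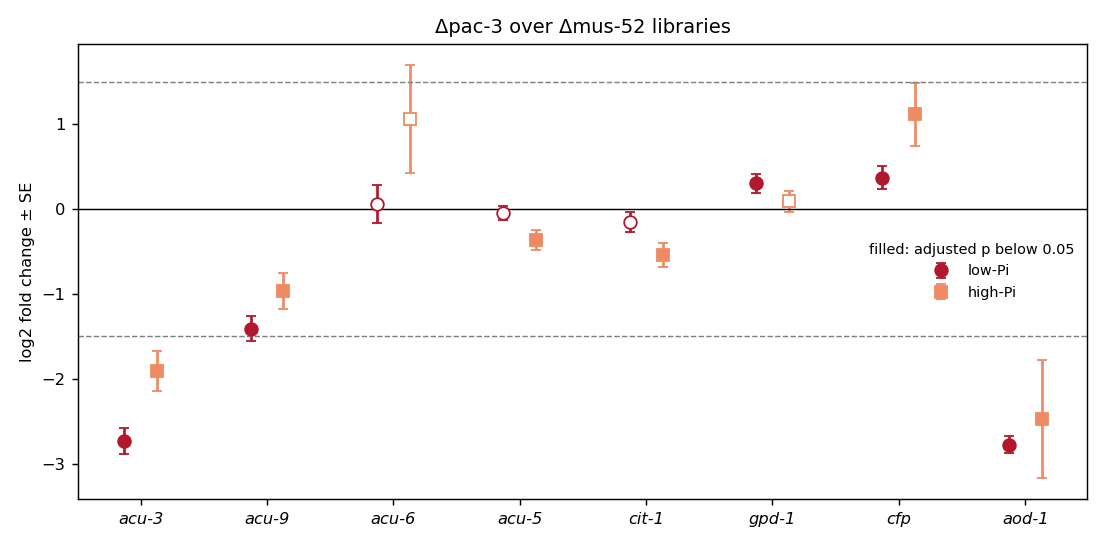
Log2 fold change (y axis) of the Δpac-3 over the Δmus-52 libraries for each gene (x axis), with bars of 1 SE, circles for low-Pi and squares for high-Pi, filled where the adjusted p was below 0.05, and dashed lines at 1.5 in each direction. acu-3 and aod-1 lay below the lower line in both Pi conditions, at -2.73 and -2.77 in low-Pi and -1.90 and -2.47 in high-Pi.

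acu-3, on linkage group V from 5289251 to 5292173, encodes isocitrate lyase, which splits isocitrate into glyoxylate and succinate and opens the glyoxylate cycle. Its levels at low Pi were 66.1, 84.4 and 74.0 CPM in libraries I, II and III of Δpac-3 by label, against 606, 463 and 423 CPM in those labelled Δmus-52. At high Pi the levels were 78.9, 129 and 104 CPM with Δpac-3, against 491, 329 and 336 CPM with Δmus-52. The highest Δpac-3 library stayed well below the lowest Δmus-52 library in both conditions. Its log2 fold change was -2.73 (SE 0.15, adjusted p = 4.73e-07) at low Pi and -1.90 (SE 0.24, adjusted p = 0.00144) at high Pi. Both calls held in all 12 alternative settings, with values of -2.84 to -2.55 at low Pi and -2.07 to -1.63 at high Pi.

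acu-9, on linkage group I from 710761 to 713665, encodes malate synthase, which joins glyoxylate to acetyl-CoA and completes the bypass. In low-Pi it had 77.1, 114 and 109 CPM in libraries labelled Δpac-3, against 292, 255 and 250.1 CPM in those labelled Δmus-52. At high Pi its levels were 132, 184 and 108 CPM with Δpac-3, against 318, 259.9 and 244 CPM with Δmus-52. The strains did not overlap in either condition, though the distance was narrower in high-Pi. This gave a log2 fold change of -1.41 (SE 0.15, adjusted p = 2.84e-05) in low-Pi and -0.97 (SE 0.21, adjusted p = 0.0118) in high-Pi, which passed the test without reaching the size of 1.5. Without the Δpac-3 low-Pi library II it was -1.51 in low-Pi, which is past that size.

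Ratios of 2 genes within a library do not depend on how libraries are scaled, and are given here per kilobase of gene length as log2 values, without a test. The ratio of acu-3 to acu-9 averaged -0.41 ± 0.17 in low-Pi and -0.45 ± 0.35 in high-Pi in the libraries labelled Δpac-3, against 0.88 ± 0.15 and 0.47 ± 0.14 in those labelled Δmus-52 (SD, n = 3 each). It was below 0 in each of the 6 Δpac-3 libraries and above 0 in each of the 6 Δmus-52 libraries. Per kilobase of gene length, introns included, acu-3 thus had fewer counts than acu-9 in the first set and more in the second. Against cit-1, acu-3 averaged -3.35 ± 0.21 and -2.98 ± 0.54 in the Δpac-3 libraries, against -0.77 ± 0.11 and -1.61 ± 0.25 in the Δmus-52 libraries, at low and at high Pi. acu-9 against cit-1 averaged -2.93 ± 0.37 and -2.53 ± 0.56 in the Δpac-3 libraries, against -1.65 ± 0.11 and -2.08 ± 0.11 in the Δmus-52 libraries. That last ratio overlapped between strains in high-Pi, where it was -1.89 in the Δpac-3 library II and -2.19 to -1.97 in the Δmus-52 libraries.

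**Figure D3:**
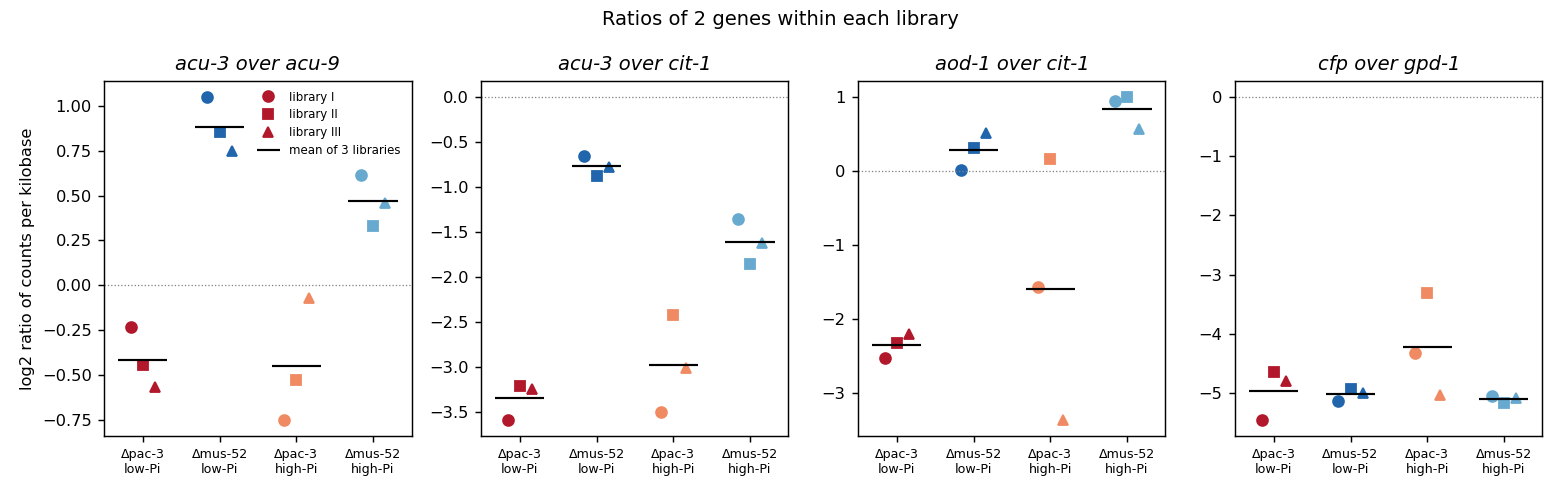
Log2 ratio of counts per kilobase of 2 genes within each library (y axis) by labelled group (x axis), with 1 symbol per library and a black line at the mean of 3. The acu-3 to acu-9 ratio lay between -0.75 and -0.07 in the Δpac-3 libraries and between 0.33 and 1.05 in the Δmus-52 libraries, and the aod-1 to cit-1 ratio ran from -3.37 to 0.16 among the Δpac-3 high-Pi libraries.

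The enzymes that feed both cycles differed less between the strains. acu-5, on linkage group II from 1822777 to 1826393, encodes acetyl-CoA synthetase, which activates acetate. In low-Pi it had 272, 297 and 302 CPM in libraries labelled Δpac-3, against 308, 293 and 301 CPM in those labelled Δmus-52. Under high Pi it measured 293, 322 and 295 CPM with Δpac-3, against 414, 396 and 356 CPM with Δmus-52. The groups overlapped in low-Pi and were apart in high-Pi, where the difference came with higher levels in the Δmus-52 libraries than in any other group. On the log2 scale the fold change was -0.05 (SE 0.09, adjusted p = 0.687) in low-Pi, with 0.14 (adjusted p = 0.278) when scaled by total counts, and -0.37 (SE 0.12, adjusted p = 0.0449) in high-Pi. The call in high-Pi was lost when scaled by total counts (-0.10, adjusted p = 0.519) and with RLE factors (-0.35, adjusted p = 0.05). It was also lost without Δmus-52 high-Pi I (adjusted p = 0.16), II (0.147) or III (0.0658) and without Δpac-3 high-Pi I (0.087) or III (0.0722).

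cit-1, on linkage group II from 2704177 to 2706814, encodes citrate synthase, which condenses acetyl-CoA with oxaloacetate and is the entry step of the citrate cycle. It had 715, 703 and 633 CPM at low Pi in libraries labelled Δpac-3, against 862, 767 and 654 CPM in those labelled Δmus-52. Under high Pi its levels were 806, 620.4 and 752 CPM with Δpac-3, against 1129, 1076 and 937 CPM with Δmus-52. As with acu-5, the groups overlapped in low-Pi and not in high-Pi, where the Δmus-52 libraries were the highest of the series. The fitted log2 fold change was -0.15 (SE 0.12, adjusted p = 0.322) in low-Pi, with 0.03 (adjusted p = 0.857) when scaled by total counts, and -0.54 (SE 0.14, adjusted p = 0.0252) in high-Pi. In high-Pi the call was lost when scaled by total counts (-0.28, adjusted p = 0.102), without Δmus-52 high-Pi I (-0.48, adjusted p = 0.0972) and without Δmus-52 high-Pi II (-0.53, adjusted p = 0.0943).

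acu-6, on linkage group VI from 1824832 to 1828327, encodes phosphoenolpyruvate carboxykinase, which turns oxaloacetate into phosphoenolpyruvate and commits carbon to gluconeogenesis. In low-Pi it had 75.8, 153 and 139.5 CPM in libraries labelled Δpac-3, against 122, 135 and 97.5 CPM in those labelled Δmus-52. The high-Pi values were 247, 594 and 67.9 CPM with Δpac-3, against 168, 151 and 113 CPM with Δmus-52. The 3 Δmus-52 libraries lay inside the range of the 3 Δpac-3 libraries in both conditions, and in high-Pi the Δpac-3 libraries differed from each other by 8.75 times. edgeR gave a log2 fold change of 0.06 (SE 0.23, adjusted p = 0.853) in low-Pi and 1.06 (SE 0.64, adjusted p = 0.228) in high-Pi, and neither passed the test. In high-Pi it was 1.55 (adjusted p = 0.015) without Δpac-3 library III and 0.13 (adjusted p = 0.86) without Δpac-3 library II. In low-Pi it was negative without Δmus-52 III (-0.07), Δpac-3 II (-0.13) or Δpac-3 III (-0.05), and none of these passed the test.

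gpd-1, on linkage group II from 3180104 to 3182245, encodes glyceraldehyde-3-phosphate dehydrogenase, which works in both glycolysis and gluconeogenesis and in Neurospora is also the clock-controlled gene ccg-7. It had 3096, 2645 and 2637 CPM at low Pi in libraries labelled Δpac-3, against 2439, 2270 and 2110 CPM in those labelled Δmus-52. High-Pi libraries had 3345, 2733 and 2764 CPM with Δpac-3, against 2864, 2725 and 2661 CPM with Δmus-52. It was the most abundant of the 8 transcripts per kilobase in all 4 groups, and the strains were apart in low-Pi only. The fold change on the log2 scale was 0.30 (SE 0.11, adjusted p = 0.046) at low Pi and 0.09 (SE 0.12, adjusted p = 0.586) at high Pi. The call in low-Pi was lost when any 1 of the 6 libraries was left out (adjusted p = 0.0615 to 0.14), with RLE factors (0.0514), without the filter on low counts (0.0563) and with all 12 libraries in the fit (0.054). In high-Pi the gene passed the test when scaled by total counts (0.35, adjusted p = 0.0357), and its log2 fold change was -0.01 without Δpac-3 high-Pi I.

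cfp, on linkage group VII from 3384904 to 3387654, encodes pyruvate decarboxylase, the entry step of ethanol fermentation, whose protein assembles into filaments in Neurospora. In low-Pi it had 90.8, 135 and 122 CPM in libraries labelled Δpac-3, against 89.3, 95.3 and 84.9 CPM in those labelled Δmus-52. Its high-Pi values were 213, 354 and 109 CPM with Δpac-3, against 111, 97.7 and 101 CPM with Δmus-52. In both conditions 1 Δpac-3 library fell inside the Δmus-52 range (I in low-Pi and III in high-Pi) and the other 2 were above it. Fitted by edgeR, the log2 fold change was 0.37 (SE 0.13, adjusted p = 0.0413) at low Pi and 1.12 (SE 0.37, adjusted p = 0.0492) at high Pi. In low-Pi the call was lost without Δmus-52 I (adjusted p = 0.0951), II (0.0724) or III (0.122), without Δpac-3 II (0.162) or III (0.113), and with all 12 libraries in the fit (0.361). In high-Pi it was lost without Δmus-52 I (adjusted p = 0.113), II (0.145) or III (0.123) and without Δpac-3 I (0.0586) or II (0.65, adjusted p = 0.127), and was 1.46 (adjusted p = 0.00308) without Δpac-3 III.

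aod-1, on linkage group IV from 1234976 to 1237012, encodes the alternative oxidase of the mitochondrial inner membrane, which passes electrons from ubiquinol straight to oxygen and is known in Neurospora for its induction when the cytochrome chain is impaired. In low-Pi it had 95.1, 108 and 106 CPM in libraries labelled Δpac-3, against 672, 732 and 721 CPM in those labelled Δmus-52. At high Pi it measured 210.3, 534 and 56.4 CPM with Δpac-3, against 1679, 1659 and 1076 CPM with Δmus-52. The low-Pi replicates agreed closely within each strain, whereas the high-Pi Δpac-3 libraries differed from each other by 9.46 times, yet the highest of them was still below the lowest Δmus-52 library. Its fitted log2 fold change was -2.77 (SE 0.10, adjusted p = 4.18e-08) in low-Pi, which held in all 12 alternatives at -2.81 to -2.59, and -2.47 (SE 0.70, adjusted p = 0.0292) in high-Pi. In high-Pi the call was lost without Δmus-52 I (-2.37, adjusted p = 0.0788), Δmus-52 II (-2.39, adjusted p = 0.0825) or Δpac-3 I (-2.33, adjusted p = 0.0547), and the value was -3.46 (adjusted p = 0.0122) without Δpac-3 II and -1.98 (adjusted p = 0.0113) without Δpac-3 III. Relative to cit-1 in the same library, the log2 ratio per kilobase was -2.36 ± 0.17 in low-Pi in the Δpac-3 libraries, against 0.28 ± 0.25 in the Δmus-52 libraries (SD, n = 3 each). In high-Pi that ratio was -1.57, 0.16 and -3.37 in the Δpac-3 libraries, against 0.95, 1.00 and 0.57 in the Δmus-52 libraries.

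Among the 3 high-Pi libraries labelled Δpac-3, acu-6, cfp and aod-1 shared an order, with library II the highest, I next and III the lowest. acu-9 had that order too, within a range of 1.70 times, and the order was found in 14.8% of the 8465 genes with enough reads. The spread of these genes was wide, with a coefficient of variation of 91.3% for aod-1, 88.3% for acu-6 and 54.6% for cfp, against a median of 17.2% over all genes in that group. Of all genes, 0.685%, 0.803% and 6.13% had a coefficient of variation at least as large in that group. The other 5 genes of the set varied by 5.22% (acu-5) to 27.4% (acu-9). In the same order, adh-1 (NCU01754), an alcohol dehydrogenase gene that acts after pyruvate decarboxylase, had 33.2, 65.5 and 14.0 CPM in the Δpac-3 high-Pi libraries I, II and III. A value for acu-6, cfp or aod-1 in high-Pi thus depends on which of these libraries enter.

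Whether the strain effect itself differed between low-Pi and high-Pi was tested as the interaction in a fit of the 12 libraries. The interaction passed for 0 of the 8 genes by edgeR, beside 10.5% of all 8465 genes tested, or 886 genes with 249 positive and 637 negative (132 and 646 when scaled by total counts). acu-3 came nearest, with a strain effect lower by 0.84 on the log2 scale in low-Pi than in high-Pi (adjusted p = 0.0854), and it passed by DESeq2 (adjusted p = 0.0392) and without Δpac-3 high-Pi I (-1.01, adjusted p = 0.024). Its adjusted p ranged from 0.024 to 0.2 over 17 alternatives. cfp had -0.76 (adjusted p = 0.272), and passed without Δpac-3 high-Pi III (-1.10, adjusted p = 0.0229). aod-1 had -0.32 (adjusted p = 0.826), with 0.67 (adjusted p = 0.462) without Δpac-3 high-Pi II. The remaining 5 genes had adjusted p-values of 0.158 to 0.462. The unadjusted p was below 0.05 for 2336 of the 8465 genes.

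The response to phosphate within each strain was taken as low-Pi over high-Pi. In the libraries labelled Δpac-3, 0 of the 8 genes passed the test, as did 0% of the 8348 genes tested by edgeR, where 413 genes had an unadjusted p below 0.05 and DESeq2 called 22 genes at an adjusted p below 0.05. The log2 fold changes of the 8 genes ran from -0.06 (acu-5, SE 0.12) to -1.37 (aod-1, SE 0.65, adjusted p = 0.928), beside a median of -0.005 over all genes. Those of acu-5, gpd-1 (-0.08, SE 0.15) and cit-1 (-0.08, SE 0.14) were smaller in size than their SE. Without Δpac-3 high-Pi I, gpd-1 had 0.020. The libraries of the 2 Pi conditions overlapped for each of the 8 genes, beside 10.8% of all genes without overlap. Without Δpac-3 high-Pi II, aod-1 had -0.36 and acu-6 -0.35, where acu-6 had -1.30 with all 6 libraries. Without the same library cfp had -0.47 (-0.96 with it), acu-9 -0.26 (-0.50 with it) and acu-3 -0.29 (-0.47 with it). In the libraries labelled Δmus-52, 4 genes passed as lower in low-Pi (acu-5, cit-1, gpd-1 and aod-1) beside 14.4% of 8190 genes, 0 passed as higher beside 18.1%, and 0 were modulated in either direction beside 3.6%. The comparisons of strain and of phosphate share libraries, and are given side by side only.

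**Figure D4:**
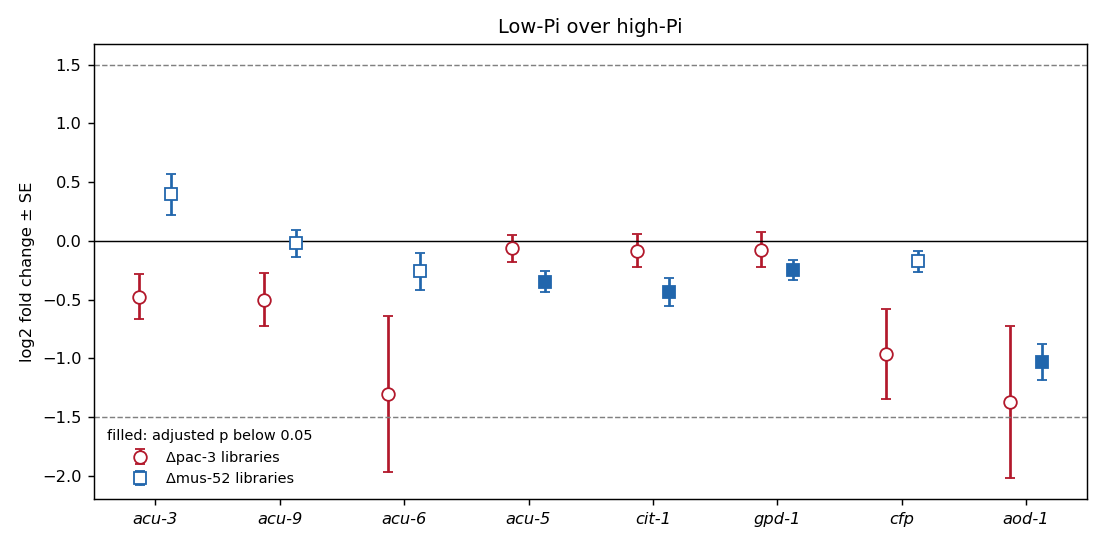
Log2 fold change of low-Pi over high-Pi (y axis) for each gene (x axis) in the Δpac-3 libraries (circles) and the Δmus-52 libraries (squares), with bars of 1 SE, filled where the adjusted p was below 0.05, and dashed lines at 1.5 in each direction. The filled symbols are acu-5, cit-1, gpd-1 and aod-1 in the Δmus-52 libraries, the lowest of them aod-1 at -1.03.

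Of these, aod-1 responded most. In the libraries labelled Δmus-52 it averaged 708 ± 32.2 CPM at low Pi and 1471 ± 343 CPM at high Pi (SD, n = 3 each), with a log2 fold change of -1.03 (SE 0.15, adjusted p = 0.000946). The low-Pi and high-Pi libraries did not overlap, and the call was lost only with all 12 libraries in the fit (-1.05, adjusted p = 0.176). cit-1 averaged 761 ± 105 CPM at low Pi and 1047 ± 99.3 CPM at high Pi (-0.44, SE 0.12, adjusted p = 0.0187), with adjusted p = 0.0603 without low-Pi II, 0.0516 without low-Pi III and 0.072 without high-Pi II. acu-5 averaged 301 ± 7.44 CPM and 389 ± 29.4 CPM (-0.35, SE 0.09, adjusted p = 0.015), with adjusted p = 0.0658 without low-Pi II and 0.0628 without high-Pi II. gpd-1 averaged 2273 ± 164 CPM and 2750 ± 104 CPM (-0.25, SE 0.09, adjusted p = 0.0472), and its call was lost without low-Pi II (0.119), low-Pi III (0.0973), high-Pi I (0.11) or high-Pi II (0.125), with all 12 libraries in the fit (0.109) and when scaled by total counts (0.0727).

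The glyoxylate cycle genes were not among those that passed in the Δmus-52 libraries. acu-3 averaged 498 ± 96.3 CPM at low Pi and 385 ± 91.4 CPM at high Pi (0.40, SE 0.17, adjusted p = 0.11), and passed without high-Pi I (0.59, adjusted p = 0.0156). acu-9 averaged 266 ± 22.7 CPM and 274 ± 39.4 CPM (-0.02, SE 0.12, adjusted p = 0.917). acu-6 averaged 118 ± 18.95 CPM and 144 ± 28.4 CPM (-0.26, adjusted p = 0.228), and passed without high-Pi III (-0.43, adjusted p = 0.0263). cfp averaged 89.8 ± 5.20 CPM and 103 ± 6.85 CPM (-0.17, adjusted p = 0.152), although its low-Pi and high-Pi libraries did not overlap. With cfp, the libraries of 5 of the 8 genes did not overlap between the Pi conditions, beside 48.3% of all genes.

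Per kilobase of gene length, the order of the 8 genes differed between the groups. In low-Pi libraries labelled Δpac-3 it ran gpd-1 (1304 CPM per kilobase), cit-1 (259), acu-5 (80.2), aod-1 (50.7), cfp (42.1), acu-6 (35.1), acu-9 (34.4) and acu-3 (25.6). The last 5 were not separated from their neighbours by more than the spread between libraries. In low-Pi libraries labelled Δmus-52 it ran gpd-1 (1061), aod-1 (348), cit-1 (289), acu-3 (170.2), acu-9 (91.5), acu-5 (83.1), acu-6 (33.8) and cfp (32.7), and only the last 2 overlapped. In high-Pi libraries labelled Δpac-3 the means ran gpd-1 (1376), cit-1 (275), aod-1 (131), acu-6 (86.7), acu-5 (83.9), cfp (81.9), acu-9 (48.6) and acu-3 (35.5), with all neighbours after gpd-1 overlapping. In high-Pi libraries labelled Δmus-52 they ran gpd-1 (1284), aod-1 (722), cit-1 (397), acu-3 (132), acu-5 (108), acu-9 (94.3), acu-6 (41.2) and cfp (37.4), where acu-3, acu-5 and acu-9 overlapped with their neighbours in this order, as did acu-6 with cfp. Among all 9729 genes with a length, aod-1 ranked 1216 in low-Pi and 471 in high-Pi in the Δpac-3 libraries, against 204 and 126 in the Δmus-52 libraries. acu-3 ranked 2359 and 1773 in the Δpac-3 libraries, against 412 and 536 in the Δmus-52 libraries.

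The other genes of these routes were read from lists by gene symbol and moved in several directions. Beyond the 8, the acetate, glyoxylate and gluconeogenesis list held 4 genes, of which 1 rose (acu-15) and 1 fell (suc) in low-Pi, and 2 rose (acu-15 and fbp-1) and 2 fell (suc and acu-8) in high-Pi. Of all genes, 25.3% rose and 25.9% fell in low-Pi, and 18.8% rose and 16.6% fell in high-Pi, so that the low-Pi counts of this list were at the share of all genes. None of the 4 was modulated, and their median log2 fold change was -0.02 at low Pi and 0.13 at high Pi, beside 0.02 and -0.01 for all genes. The largest of them was suc (NCU02505), the gene of pyruvate carboxylase, which refills oxaloacetate, at -1.35 in both conditions (adjusted p = 4.25e-06 in low-Pi and 0.00209 in high-Pi). Fermentation held 1 further gene, adh-1, with 12.9, 14.1 and 11.1 CPM at low Pi in libraries labelled Δpac-3, against 5.53, 5.71 and 4.66 CPM in those labelled Δmus-52. With high Pi its levels were the 33.2, 65.5 and 14.0 CPM given above for Δpac-3, against 6.62, 4.45 and 5.21 CPM with Δmus-52. adh-1 was higher in every Δpac-3 library, by 1.25 in low-Pi (adjusted p = 7.21e-05) and 2.77 in high-Pi (adjusted p = 0.00639), and was modulated in high-Pi. Its strain effect was lower by 1.53 in low-Pi than in high-Pi, which did not pass the interaction test (adjusted p = 0.105) but did by DESeq2 (adjusted p = 0.0336) and without Δpac-3 high-Pi III (-1.92, adjusted p = 0.00535).

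**Figure D5:**
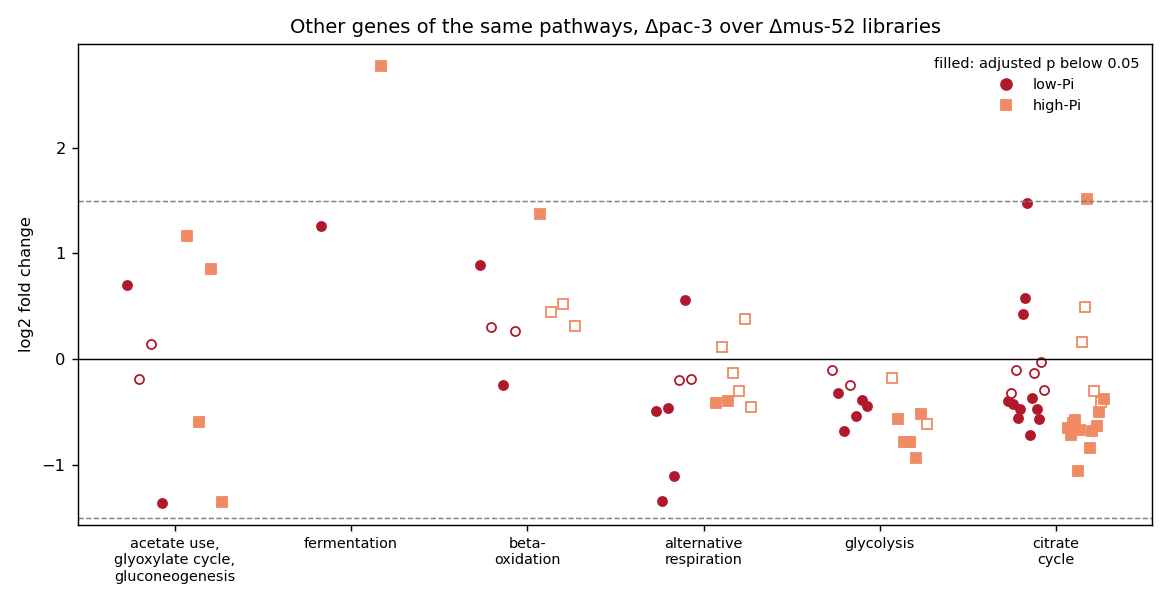
Log2 fold change (y axis) of the Δpac-3 over the Δmus-52 libraries for the other genes of each list (x axis), 1 symbol per gene, circles for low-Pi and squares for high-Pi, filled where the adjusted p was below 0.05, and dashed lines at 1.5 in each direction. adh-1 at 2.77 and tca-2 at 1.51, both in high-Pi, are the 2 symbols past a dashed line.

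With TMM scaling, more genes of glycolysis and of the citrate cycle fell than rose, which for the citrate cycle in low-Pi was not so when scaled by total counts. Of 7 further glycolysis genes, 5 fell and 0 rose in each Pi condition (median -0.38 in low-Pi and -0.61 in high-Pi), beside 25.9% and 16.6% of all genes that fell. When scaled by total counts, 2 fell in low-Pi beside 1409 of all 8269 genes, and 1 in high-Pi beside 689 of 8284. Of 16 citrate cycle genes, 8 fell and 3 rose in low-Pi (median -0.34), and 11 fell and 1 rose in high-Pi (median -0.59), beside 25.9% that fell and 25.3% that rose of all genes in low-Pi and 16.6% and 18.8% in high-Pi. Scaled by total counts, 3 fell and 3 rose in low-Pi, beside 1409 that fell and 3086 that rose of all 8269 genes. In high-Pi that scaling gave 7 that fell and 3 that rose, beside 689 and 2569 of 8284 genes. The exception in size was tca-2 (NCU02482), higher in the libraries labelled Δpac-3 by 1.48 in low-Pi (adjusted p = 2.24e-06) and by 1.51 in high-Pi (adjusted p = 0.00187), where it was modulated. At low Pi it measured 48.3, 42.6 and 40.7 CPM with the label Δpac-3, against 17.0, 15.5 and 14.9 CPM with the label Δmus-52. At high Pi it measured 48.2, 36.1 and 59.9 CPM with Δpac-3, against 16.0, 15.3 and 18.9 CPM with Δmus-52. Its libraries did not overlap between strains. Of 4 beta-oxidation genes, 1 rose and 1 fell in low-Pi and 1 rose in high-Pi, near the shares of all genes (25.3% and 25.9% in low-Pi, 18.8% in high-Pi).

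Alternative respiration, the route aod-1 belongs to, held 7 further genes by symbol, of which aod-2 and aod-5 are regulators given below. In low-Pi, 4 fell and 1 rose (median -0.46), beside 25.9% of all genes that fell and 25.3% that rose. In high-Pi, 2 fell and 0 rose (median -0.30), beside 16.6% of all genes that fell and 18.8% that rose. The 2 that fell in high-Pi were aod-2 and aod-5, which were also among the 4 in low-Pi. None of the 7 was modulated. Scaled by total counts, 2 fell and 1 rose in low-Pi, beside 1409 that fell and 3086 that rose of all 8269 genes. In high-Pi that scaling gave 0 that fell and 1 that rose, beside 689 and 2569 of 8284 genes. aod-3 (NCU04874), a second alternative oxidase gene, had 23.0, 43.5 and 39.1 CPM at low Pi in libraries labelled Δpac-3, against 94.7, 89.4 and 81.5 CPM in those labelled Δmus-52 (-1.34, adjusted p = 0.000308). High-Pi levels were 21.6, 114 and 46.8 CPM with Δpac-3, against 72.8, 47.6 and 46.5 CPM with Δmus-52 (0.12, adjusted p = 0.877), with library II again the highest of the Δpac-3 libraries.

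Regulators of these routes differed less between the strains than acu-3 or aod-1. Of the regulators, acu-15, aod-2 and aod-5 were already counted in the lists above. acu-15 (NCU06656), the zinc cluster activator of acetate genes, measured 142.2, 138 and 139.7 CPM at low Pi with the label Δpac-3, against 93.6, 82.2 and 83.3 CPM with the label Δmus-52. At high Pi it measured 154, 222 and 169 CPM with Δpac-3, against 82.1, 68.1 and 91.7 CPM with Δmus-52. It was higher in every Δpac-3 library at the same Pi, by 0.70 (adjusted p = 8.25e-05) and 1.16 (adjusted p = 0.00319) on the log2 scale, while acu-3 and acu-9 were lower in the same libraries. cre-1 (NCU08807), the carbon catabolite repressor, had 181, 232 and 220.1 CPM in low-Pi in the Δpac-3 libraries, against 417, 427 and 397 CPM in the Δmus-52 libraries (-0.96, adjusted p = 5.17e-05). For high Pi the values were 313, 272 and 296 CPM with Δpac-3, against 309, 299 and 354 CPM with Δmus-52 (-0.14, adjusted p = 0.41, or 0.12 with adjusted p = 0.462 when scaled by total counts). Its strain effect was lower by 0.84 in low-Pi than in high-Pi, and this interaction passed the test (adjusted p = 0.00806) and held in all 17 alternatives, at adjusted p-values of 2.58e-05 to 0.0316. aod-2 (NCU03352) and aod-5 (NCU03938), the zinc cluster factors needed for induction of aod-1, were lower, with low-Pi log2 fold changes of -0.49 (adjusted p = 0.012) and -0.46 (adjusted p = 0.00311). The high-Pi values were -0.41 (adjusted p = 0.0238) and -0.40 (adjusted p = 0.0469), calls that were lost in 5 and 7 of 12 alternatives. Scaled by total counts, aod-2 had -0.30 and -0.15 and aod-5 had -0.27 and -0.14, and neither passed the test in either condition.

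The genes whose pattern over the 12 libraries was most like that of acu-3 were NCU09116, NCU06864 and NCU04314, by the root mean square difference of log2 CPM centred on each gene's mean. The difference was 0.272, 0.297 and 0.299, against a median of 1.22 over 8464 genes. Their strain effects were -2.17, -2.36 and -2.82 at low Pi, and -1.61, -1.82 and -1.20 at high Pi. Nearest to aod-1 were nmt-1 (NCU09345), a gene of thiamine synthesis, NCU16673 and NCU01897, at 0.528, 0.534 and 0.649 against a median of 1.68. These differences were larger than those of acu-3, but the measure also grows with the spread of a gene's own levels, and the median was larger too. The strain effects of nmt-1, NCU16673 and NCU01897 were -3.24, -3.58 and -2.06 at low Pi, and -3.71, -2.91 and -2.46 at high Pi. Both sets of genes were picked on the same 12 libraries, so that strain effects like those of acu-3 and aod-1 follow from the choice.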

How the data were processed

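The authors sequenced paired-end reads of 3 biological replicates per group, removed low-quality bases, aligned the rest by Bowtie2 2.3.4 (FastQC 0.11.7 for quality, per the submitters' processing notes) and deposited raw counts per gene and library. The assembly was NC12. The counting tool and strand use are not given in the sources used here. The authors' deposited fold change tables of the strain comparisons were not used.

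Counts were analysed in R 4.3.3 with edgeR 4.0.16 (filterByExpr, minimum count 10 and minimum total 15, TMM factors, quasi-likelihood F test, Benjamini-Hochberg adjustment over all genes tested). Comparisons of 2 groups used their 6 libraries, and the interaction all 12. The SE is the log2 fold change divided by the square root of F. DESeq2 1.42.0 was an alternative, and the fits were tested on simulated data. Symbols and gene lengths, introns included, came from the NC12 annotation, in which 9729 of the 9730 gene IDs matched. It gives no product names, so lists were applied by symbol alone. Figures were drawn with matplotlib 3.10.9 in Python 3.11.15.

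Members and lists were chosen with earlier results of these data known. Named genes were the 8 members, pac-3 and mus-52, at most 4 modulated genes per list, every regulator, and the 3 genes most like acu-3 and aod-1. suc, aod-3, acu-8 and fbp-1 were named after their values were seen. Reads shared with paralogs were not examined.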

Additional observations from a re-analysis of the deposited data

Results flagged for a closer look

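For cre-1, the strain effect differed between the Pi conditions by the interaction test, with a difference of -0.84 on the log2 scale (low-Pi minus high-Pi, adjusted p = 0.00806 by edgeR). The levels averaged lower in the libraries labelled Δpac-3 in low-Pi, with a log2 fold change of -0.96, and -0.14 in high-Pi.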

How the results depend on the processing

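The 40 log2 fold changes of the 8 genes (5 comparisons) were recomputed in 520 alternatives, of which 452 kept direction and side of the threshold, 47 lost a call, 9 gained one and 12 changed sign, all 12 in values that passed the test in neither setting. With total counts only, signs changed for acu-5 (0.14) and cit-1 (0.027) between strains in low-Pi, acu-9 (0.012) between Pi conditions in the Δmus-52 libraries, and cre-1 (0.12) between strains in high-Pi. Leaving out 1 library gave -0.13 to 0.30 for acu-6 between strains in low-Pi, -0.013 to 0.16 for gpd-1 between strains in high-Pi, -0.16 to 0.020 for gpd-1 between Pi conditions in the Δpac-3 libraries, -0.12 to 0.084 for acu-9 in the Δmus-52 libraries and -0.80 to 0.67 for the interaction of aod-1. Of the 8 genes, the number passing between strains was 5 at low Pi and 6 at high Pi, and 3 to 4 and 2 to 6 with 1 library left out (modulated 2 to 3 and 1 to 3). Over all genes, 4231 passed at low Pi and 2935 at high Pi, and 3486 to 4437 and 1582 to 3200 with 1 library left out. In the Δmus-52 Pi response 4 of the 8 passed, and 1 to 5 with 1 library left out, beside 2666 and 1707 to 2923 of all genes. For the interaction 0 of the 8 passed, and 0 to 1 with 1 library left out. With all 12 libraries in the fit, 3 of the 8 passed in low-Pi and 2 in the Δmus-52 Pi response, beside 3548 and 1654 of all 8465 genes. DESeq2 gave 1 for the interaction, and a size of at least 1 gave 1 modulated gene in the Δmus-52 Pi response. Over all genes, calls numbered 1397 (against 794) in low-Pi, 1328 (against 757) in high-Pi and 585 (against 295) in the Δmus-52 Pi response at a size of at least 1, and DESeq2 called 1344 (against 886) for the interaction and 6 (against 0) in the Δpac-3 Pi response. Leaving out 1 library gave 392 to 1585 for the interaction and 0 to 17 in the Δpac-3 Pi response.

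The replicate numbers were not taken to pair the libraries, since in no comparison did every same-numbered pair correlate above 0.1: deviations correlated at 0.0342 to 0.0573 between strains in low-Pi, -0.149 to 0.287 between strains in high-Pi, 0.045 to 0.341 for the Δpac-3 Pi response and 0.0494 to 0.213 for the Δmus-52 Pi response. Differently numbered pairs correlated at -0.0573 to 0.0113, -0.319 to 0.117, -0.249 to 0.202 and -0.139 to 0.06, in the same order of comparisons. Whether libraries of the same number shared a batch was not tested. With a replicate block, 5 of the 8 genes passed in low-Pi (5 without), 4 in high-Pi (6 without) and 6 in the Δmus-52 Pi response (4 without). In high-Pi, acu-5 and cfp lost their calls (adjusted p = 0.0565 and 0.0645), and in the Δmus-52 Pi response acu-3 (0.40, adjusted p = 0.00214) and acu-6 (-0.26, adjusted p = 0.031) gained one. Over all genes, 4377 passed in low-Pi (4231 without), 2969 in high-Pi (2935 without) and 3248 in the Δmus-52 Pi response (2666 without). In the Δpac-3 Pi response 1 was called (0 without).

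With 3 biological replicates per group, the fitted coefficient of variation beyond counting error came to 0.121 between strains at low Pi, against 0.208 at high Pi.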
